A study of Homo sapiens with 24 samples.

Results

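MEIS1, PBX3 and MEF2C are transcription factor genes tied to leukemias with a rearranged MLL gene. MEIS1 and PBX3 act as cofactors of the HOX program. The 3 genes were chosen by name, with earlier results of these data known. Each was followed with every probe set of the array that lists it and no other gene. There were 2 such probe sets for MEIS1, 1 for PBX3 and 3 for MEF2C, together 6 of the 54675 probe sets and 3 of the 19775 named genes. All 6 passed the filter on low values, a log2 level of at least 4 on at least 3 arrays. A level here is the log2 of the deposited intensity, and the lowest and highest log2 levels in the data were 2.19 and 16.13.

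MEIS1 and PBX3 belong to the TALE class of homeobox proteins, which bind DNA together with HOX proteins and raise the affinity and selectivity of the complex. MEIS1 with HOX proteins keeps blood progenitors immature, and PBX3 is a PBX family member tied to MLL-rearranged leukemia. MEF2C is a MADS-box factor of muscle and of lymphoid and myeloid progenitors that has been linked to self-renewal of leukemic cells. MLL fusion proteins bind such target genes and draw the histone methyltransferase DOT1L to them.

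The series compared cells under EPZ004777, a small molecule that inhibits DOT1L, with vehicle-treated cells, in 24 cultures of 2 human lines. MV4-11, kept in IMDM with FBS, comes from a leukemia of biphenotypic B myelomonocytic type and carries an MLL-AF4 fusion. MOLM-13, kept in RPMI with FBS, carries MLL-AF9 and comes from acute myeloid leukemia. The MV4-11 cultures received the inhibitor at 3 uM, or 0.1% DMSO alone, for 2, 4 or 6 days, and the MOLM-13 cultures for 6 days. Each of the 8 groups had 3 cultures, called biological replicates in the labels. Each fusion is represented by 1 line, and nothing says how the 3 cultures of a group were started, so p-values measure the spread between these cultures. A change is treated minus vehicle on the log2 scale, with the SE of 1 limma fit over all 24 arrays. Called means an adjusted p under 0.05 after Benjamini-Hochberg adjustment over the 10971 genes tested. The number of arrays limits the precision. In bulk RNA, fewer cells of a type and less RNA per cell cannot be told apart.

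Median levels of the arrays were close, between 8.04 and 8.15. The 3 arrays of treated MV4-11 cells on day 6 correlated least within their group (mean r of an array from 0.98 to 0.989, against 0.991 to 0.997 in the other groups). The level difference between 3′ and 5′ control probe sets of ACTB and GAPDH, a sign of RNA and labelling quality, was 0.83 to 1.91 in treated MV4-11 cells on day 6, with replicate 3 at 1.91, and 2.10 to 2.84 in treated MOLM-13 cells. In the other 6 groups it was 0.53 to 1.15. Day 6 values are therefore also given with that difference as a covariate, and those of MV4-11 cells without replicate 3. In each line every treated array of day 6 lay above every vehicle array of day 6 in this difference. The covariate therefore cannot separate RNA quality from treatment. Of 6 tested monocyte and macrophage markers 4 rose in MV4-11 cells on day 6 and all 6 in MOLM-13 cells. Among all genes 33.6% were called higher and 28.4% lower on day 6 in MV4-11 cells, and 29.3% and 36.5% in MOLM-13 cells. The markers CD14 and VCAN changed by 0.0 on day 4 in MV4-11 cells. In MOLM-13 cells they rose by 2.23 and 2.62, but by 0.87 and 1.11 with a pseudocount of 16, which dampens changes at low levels. The median level of the 8 monocyte and macrophage markers on the array went from 3.33 to 3.45 across vehicle arrays to 5.64 to 6.07 across treated arrays in MOLM-13 cells. In MV4-11 cells on day 6 it went from 3.94 to 4.53 to 4.82 to 4.92. CSF1R, the macrophage growth factor receptor, went from 9.13 to 11.03 in MV4-11 cells and from 8.06 to 9.46 in MOLM-13 cells on day 6. Of 7 myeloid markers, 5 and 4 rose on day 6 in the 2 lines. CEBPA, a myeloid transcription factor, stood at 12.34 ± 0.10 (SD, n = 3) in vehicle MV4-11 cells and at 13.30 ± 0.06 in vehicle MOLM-13 cells on day 6. Of 7 B-lymphoid markers on the array, MS4A1, CD79A, EBF1 and VPREB1 stayed at or under 3.19 on every array, while CD79B (group means of 4.78 to 5.30 in MV4-11 cells) and PAX5 (3.93 to 4.99) passed the filter and were not called on day 6 in either line. BLNK, a B cell receptor adaptor, rose in MV4-11 cells from 2.22 to 4.91 on day 6. Of 5 T and NK cell markers, CD3E, CD2 and KLRD1 were at 2.19 on every array, NKG7 stood at 9.97 to 11.30 and rose in all 4 comparisons, and CD3D rose in MOLM-13 cells from 5.38 to 8.12. The median of 3 erythroid markers was 2.19 to 2.51. Of 11 housekeeping genes, 0 rose and 6 fell on day 6 in MV4-11 cells and 2 rose and 5 fell in MOLM-13 cells, both with a median change of -0.14. The part of these differences in the changes of MEIS1, PBX3 and MEF2C was not tested.

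In the RefSeq annotation of GRCh38.p14, MEIS1 lies at chr2:66435125-66573869, PBX3 at chr9:125747373-125967377 and MEF2C at chr5:88717117-88904105. The 250 bases before a start site are shown because MEIS1 and PBX3 proteins bind DNA together, so a reader may look for their own letters at the start of the 3 genes. RefSeq promoter windows matched all 3 genes, with 1 window for MEIS1, 1 for PBX3 and 7 for the 7 start sites of MEF2C. The windows below lie at chr2:66434875-66435124 (plus strand), chr9:125747933-125748182 (plus strand), chr5:88904106-88904355 (minus strand) and chr5:88883185-88883434 (minus strand), in that order, 5′ to 3′. Capitals mark TGACAG, the core letters of MEIS sites, or CTGTCA, the same letters on the other strand.
MEIS1: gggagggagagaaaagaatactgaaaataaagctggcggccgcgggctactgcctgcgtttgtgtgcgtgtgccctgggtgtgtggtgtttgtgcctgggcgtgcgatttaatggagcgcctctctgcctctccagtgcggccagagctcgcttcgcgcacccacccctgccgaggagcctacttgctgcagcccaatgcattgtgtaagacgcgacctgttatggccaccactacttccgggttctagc
PBX3: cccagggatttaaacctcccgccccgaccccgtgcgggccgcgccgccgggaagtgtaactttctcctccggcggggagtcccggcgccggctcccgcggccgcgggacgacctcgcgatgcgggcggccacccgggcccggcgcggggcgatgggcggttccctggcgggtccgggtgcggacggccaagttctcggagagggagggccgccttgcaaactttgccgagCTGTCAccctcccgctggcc
MEF2C, outermost start: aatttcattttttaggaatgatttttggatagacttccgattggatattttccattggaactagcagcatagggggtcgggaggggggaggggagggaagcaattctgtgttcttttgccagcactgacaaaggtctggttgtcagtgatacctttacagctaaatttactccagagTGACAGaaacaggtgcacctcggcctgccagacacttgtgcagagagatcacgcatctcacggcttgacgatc
MEF2C, most GC-rich start: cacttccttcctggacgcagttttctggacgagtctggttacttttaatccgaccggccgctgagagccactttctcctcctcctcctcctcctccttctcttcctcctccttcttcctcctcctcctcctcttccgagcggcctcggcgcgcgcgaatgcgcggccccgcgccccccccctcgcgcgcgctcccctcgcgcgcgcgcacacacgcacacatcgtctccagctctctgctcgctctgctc

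The MEIS1 window held neither spelling, and the PBX3 window held 1 match, 20 bases before its start site (position -20). That start site, at position 125748183, and the PBX3 window lie inside the PBX3 span given above. Of the 7 MEF2C windows 3 held 1 match each, the outermost one at position -73. TGACAG in either strand occurred in 13.0% of 35114 RefSeq windows of that length. TGATTNAT, the letters of a PBX-HOX pair, was in 2.48% of all windows on either strand and in none of the 9. The MEF2 site, searched by its consensus on both strands, was in 2.8% of all windows and in 1 of the 9, a MEF2C window whose start is at position 88824344. GC content was 59.6% for MEIS1, 75.6% for PBX3, 47.2% for the outermost MEF2C window and 66.0% for the other MEF2C window shown, against a median of 58.0%. A match only describes the letters in these windows.

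MEIS1 fell in MOLM-13 cells and, by a smaller amount, in MV4-11 cells on day 6, and it was not called in MV4-11 cells on day 2 or day 4. On the probe set 204069_at, the vehicle arrays of MV4-11 cells read 11.15, 11.17 and 11.09 on day 2, and the treated arrays 11.13, 11.09 and 11.05. On day 4 the vehicle arrays read 11.19, 11.16 and 11.22 and the treated arrays 11.01, 11.13 and 10.99. The day 2 groups overlapped, and the day 4 groups did not, by a gap smaller than the range of the treated arrays. On day 6 the vehicle arrays read 11.03, 10.98 and 11.10, and the treated arrays 10.25, 10.41 and 10.30. In MOLM-13 cells on day 6, vehicle arrays read 10.42, 10.57 and 10.59, and treated arrays 8.54, 8.58 and 8.18. In both day 6 comparisons every treated array lay below every vehicle array.

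The changes of MEIS1 were -0.04 ± 0.08 on day 2 (adjusted p = 0.831; 95% interval from -0.22 to 0.13) and -0.15 ± 0.08 on day 4 (adjusted p = 0.157; -0.32 to 0.03). On day 6 MEIS1 fell by 0.71 ± 0.08 (adjusted p = 3.52e-07), 1.64-fold. In MOLM-13 cells it fell by 2.09 ± 0.08 (adjusted p = 6.48e-14), 4.26-fold, rank 70 of 10971 from the most negative change. The fall came mainly between days 4 and 6: the day 6 effect minus the day 4 effect was -0.57 ± 0.12 (adjusted p = 0.00187), while the day 4 effect minus the day 2 effect was -0.10 ± 0.12 (adjusted p = 0.657). With the 3′ to 5′ difference as a covariate the day 6 changes were -0.73 ± 0.10 in MV4-11 and -2.12 ± 0.15 in MOLM-13 cells, and without replicate 3 the MV4-11 change was -0.70 ± 0.09.

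The second MEIS1 probe set, 1559477_s_at, gave the same order of groups at the low end and larger changes. Its levels in MV4-11 cells on day 6 were 9.66, 9.70 and 9.60 with vehicle and 8.36, 8.27 and 7.32 with the inhibitor. In MOLM-13 cells they were 8.52, 8.78 and 8.77 with vehicle and 5.25, 4.90 and 4.09 with the inhibitor. In both lines the lowest treated array was replicate 3, and no treated array reached a vehicle array. In MV4-11 cells that array, at 7.32, is also the one with the 3′ to 5′ difference of 1.91. This probe set was not fitted without it or with the covariate. The changes on days 2, 4 and 6 were -0.09 ± 0.23, -0.30 ± 0.23 and -1.67 ± 0.23, and -3.95 ± 0.23 in MOLM-13 cells (adjusted p = 0.909, 0.337, 5.70e-06 and 7.06e-11 in a limma fit over 25334 probe sets). Across the 24 arrays the 2 probe sets had a Pearson r of 0.989, as a description.

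PBX3 fell at every time in MV4-11 cells, earlier than MEIS1 was called, and was not called in MOLM-13 cells. PBX3 is measured by 1 probe set, 204082_at. In MV4-11 cells its vehicle arrays read 11.04, 11.06 and 10.91 on day 2, and its treated arrays 10.58, 10.53 and 10.57. On day 4 the vehicle arrays read 11.10, 11.03 and 11.06, and the treated arrays 10.18, 10.46 and 10.38. On day 6 they read 10.85, 10.91 and 10.93 with vehicle and 9.80, 9.90 and 9.88 with the inhibitor. The treated arrays of each day lay below all vehicle arrays of MV4-11 cells and below all treated arrays of the day before. In MOLM-13 cells the vehicle arrays read 11.35, 11.55 and 11.52, and the treated arrays 11.46, 11.32 and 11.35, so the groups overlapped.

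The fall of PBX3 in MV4-11 cells was 1.36-fold on day 2 (-0.44 ± 0.07, adjusted p = 0.000204), 1.65-fold on day 4 (-0.72 ± 0.07, adjusted p = 5.77e-08) and 2.05-fold on day 6 (-1.04 ± 0.07, adjusted p = 1.91e-10). In MOLM-13 cells the change was -0.10 ± 0.07 (adjusted p = 0.227), with a 95% interval from -0.24 to 0.05, and 0.04 when the arrays were quantile-normalized again. The interval does not reach the falls measured in MV4-11 cells on any day. The day 6 effect exceeded the day 2 effect by -0.59 ± 0.10 (adjusted p = 0.000102). The step from day 4 to day 6 was -0.31 ± 0.10 (adjusted p = 0.0251) and lost its call when treated replicate 2 or 3 of day 4, vehicle replicate 2 of day 4, or vehicle replicate 2 or 3 of day 6 was left out (adjusted p from 0.0512 to 0.073), or with the 3′ to 5′ covariate (-0.28, adjusted p = 0.116). The step from day 2 to day 4 was -0.28 ± 0.10 (adjusted p = 0.0613), and was called without treated replicate 2 of day 4 (-0.34, adjusted p = 0.0294).

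MEF2C fell in all 4 comparisons. On its brightest probe set, 209199_s_at, vehicle MV4-11 arrays read 11.75, 11.62 and 11.63 on day 2, and treated arrays 11.13, 11.10 and 11.17. On day 4 vehicle arrays read 11.86, 11.83 and 11.92, and treated arrays 10.66, 10.62 and 10.59. On day 6 vehicle arrays read 11.83, 11.78 and 11.77, and treated arrays 9.99, 9.95 and 9.97. Each day the treated arrays were lower than all those of the day before, and their spread on day 6 was only 0.02 (SD, n = 3). In MOLM-13 cells the vehicle arrays read 12.06, 12.09 and 12.04, and the treated arrays 9.80, 9.59 and 9.85. No treated array overlapped a vehicle array on any day in either line.

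The falls of MEF2C were 1.45-fold on day 2 (-0.54 ± 0.06, adjusted p = 2.79e-06), 2.38-fold on day 4 (-1.25 ± 0.06, adjusted p = 2.06e-12) and 3.54-fold on day 6 (-1.82 ± 0.06, adjusted p = 4.13e-15). In MOLM-13 cells the fall was 4.99-fold (-2.32 ± 0.06, adjusted p = 6.04e-17). From the most negative change of 10971 genes, these were rank 95, 212, 73 and 50. Between the days of MV4-11 cells 15.0% of genes were called from day 2 to day 4, 25.7% from day 4 to day 6 and 39.6% from day 2 to day 6, and the steps of MEF2C were among them: -0.71 ± 0.08 from day 2 to day 4 (adjusted p = 6.81e-06) and -0.57 ± 0.08 from day 4 to day 6 (adjusted p = 9.26e-05). With the 3′ to 5′ covariate the day 6 changes were -1.77 ± 0.07 and -2.20 ± 0.10, and without replicate 3 the MV4-11 value was -1.82 ± 0.06.

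The other MEF2C probe sets fell as well, by different amounts. The probe set 209200_at changed by -0.34 ± 0.08, -0.93 ± 0.08 and -1.54 ± 0.08 on days 2, 4 and 6 and by -2.52 ± 0.08 in MOLM-13 cells, and all 4 were called. The dim probe set 207968_s_at read 7.73, 7.68 and 7.83 in vehicle and 3.72, 4.14 and 3.88 in treated MV4-11 arrays on day 6. In MOLM-13 cells it read 7.76, 7.92 and 7.93 with vehicle and 5.05, 4.26 and 5.42 with the inhibitor. Here the treated MV4-11 arrays ended below the treated MOLM-13 arrays, the reverse of their order on the other probe sets. Its changes were -0.55 ± 0.19 on day 2 (adjusted p = 0.0772 in the limma fit over probe sets, not called), -1.75 ± 0.19, -3.83 ± 0.19 and -2.96 ± 0.19. Pearson r between the MEF2C probe sets was 0.918 to 0.977 over 24 arrays.

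**Figure D1:**
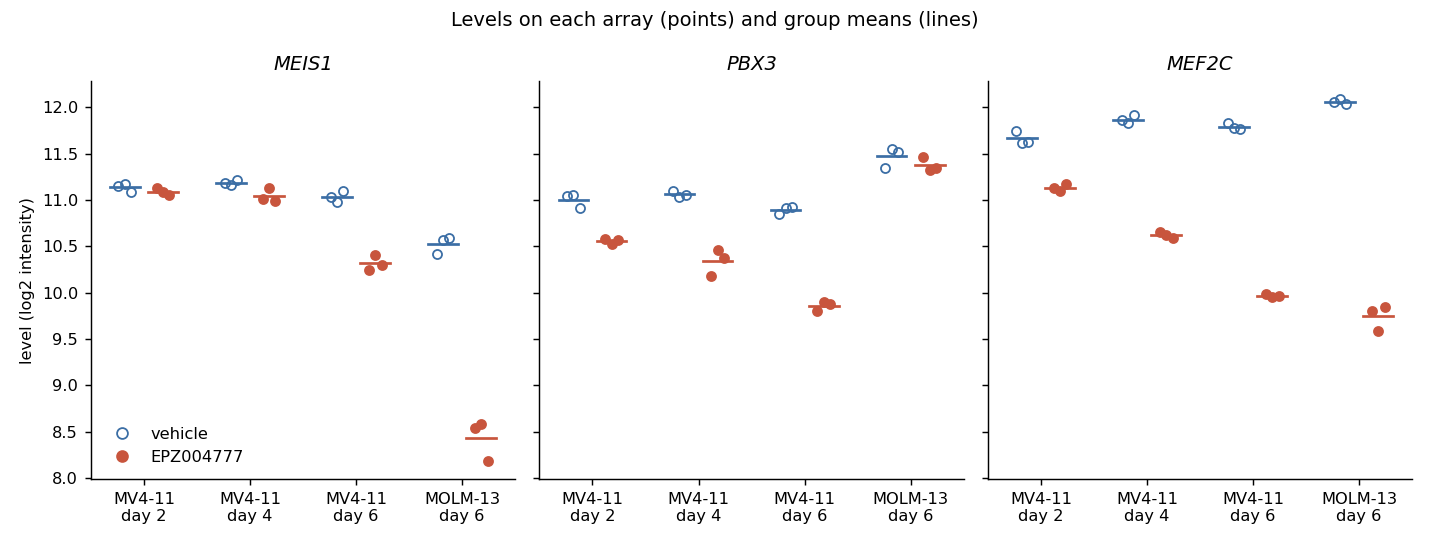
Levels of MEIS1 (204069_at), PBX3 (204082_at) and MEF2C (209199_s_at) as log2 intensity on each of the 24 arrays, by line and day. Open points are vehicle arrays, filled points EPZ004777 arrays, and lines are means of 3. MEIS1 drops in MV4-11 cells on day 6 (10.25 to 10.41 treated) and further in MOLM-13 cells, PBX3 overlaps in MOLM-13 cells, and MEF2C steps down each day; heights are not to be compared between genes.

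**Figure D2:**
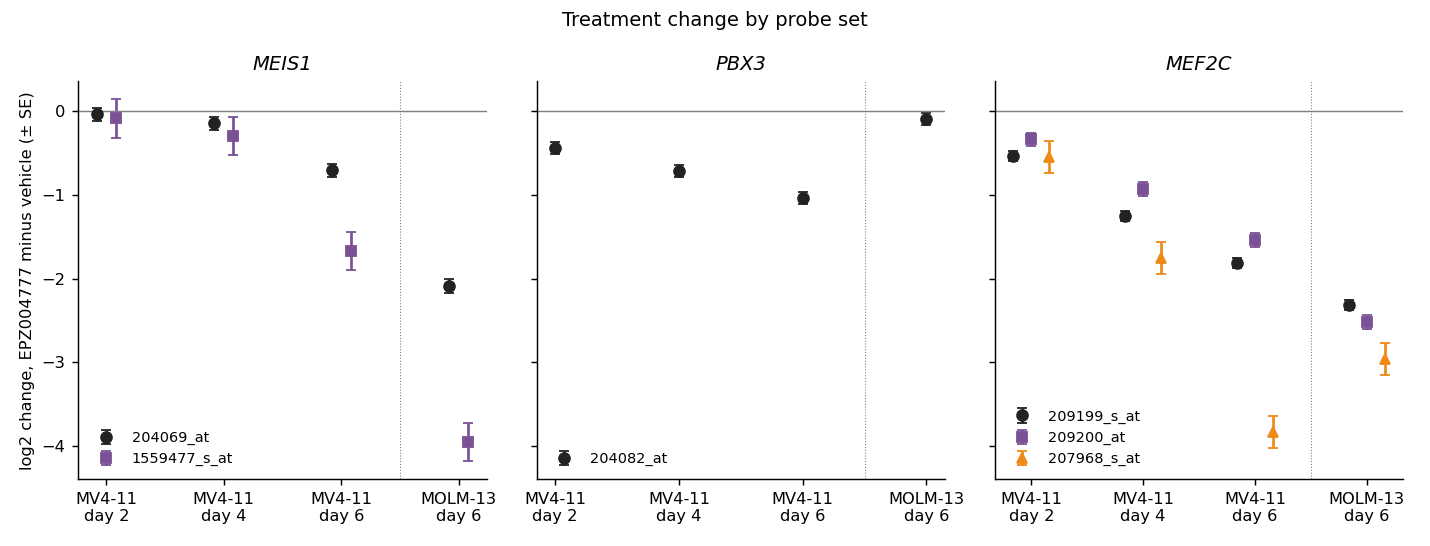
Log2 change (EPZ004777 minus vehicle) with its SE from the limma fit over probe sets for the 6 probe sets, by line and day, with 3 arrays a group. The MEIS1 probe sets reach -2.09 and -3.95 in MOLM-13 cells, PBX3 stands near 0 there, and the MEF2C probe set 207968_s_at is the 1 of 3 that changed more in MV4-11 than in MOLM-13 cells on day 6.

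Counted over the genes, 2 of the 3 were called lower on day 2, where 12.5% of all genes tested were called, 3.68% lower and 8.82% higher. On day 4 it was again 2 of 3, against 46.2% called, 21.0% lower and 25.2% higher. All 3 were called lower on day 6 in MV4-11 cells, against 62.0% called, 28.4% lower and 33.6% higher, and 2 of 3 in MOLM-13 cells, against 65.8% called, 36.5% lower and 29.3% higher. Of the 6 probe sets, 3, 4, 6 and 5 were called in the same order, against 8.68%, 37.7%, 57.6% and 62.8% of 25334 probe sets. With so many genes called, size separates more than the call. A called fall of at least 2-fold was found in 0.173%, 2.78%, 3.85% and 7.22% of genes in these 4 comparisons. MEF2C was past 2-fold on day 4, PBX3 and MEF2C on day 6, and MEIS1 and MEF2C in MOLM-13 cells.

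The course over days in MV4-11 cells is described by the share of each gene's own day 6 change. PBX3 had reached 42.9% ± 7.25 (SE) on day 2 and 69.9% ± 8.13 on day 4. MEF2C had reached 29.4% ± 3.32 and 68.5% ± 3.86, and MEIS1 6.15% ± 11.5 and 20.5% ± 11.7. On the lowest share of its other probe sets, MEF2C had reached 14.3% ± 4.90 on day 2 and 45.6% ± 5.33 on day 4. Differences between genes were not tested. Within treated cultures alone, MEIS1 went from day 2 to day 4 by -0.04 ± 0.08 (adjusted p = 0.717) and from day 4 to day 6 by -0.73 ± 0.08 (adjusted p = 6.09e-06), where 38.7% and 23.9% of genes were called. PBX3 went by -0.22 ± 0.07 and -0.48 ± 0.07, and MEF2C by -0.51 ± 0.06 and -0.66 ± 0.06, and all 4 of these steps were called (adjusted p at most 0.0146); that of PBX3 from day 2 to day 4 was -0.14 and not called (adjusted p = 0.111) without treated replicate 1 of day 4.

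Vehicle cultures of MV4-11 cells held the 3 genes close to 1 level over time. Of 9 comparisons between vehicle days 1 was called, a MEF2C level higher on day 4 than on day 2 by 0.21 ± 0.06 (adjusted p = 0.0127), where 27.0% of genes were called. It was not called on the mean of the MEF2C probe sets (0.10), nor without any 1 of 3 arrays, vehicle replicate 2 or 3 of day 2 or replicate 3 of day 4 (0.18 to 0.19, adjusted p up to 0.0682). The other comparisons ran from -0.17 to 0.12. Between days 4 and 6 and days 2 and 6, 19.2% and 1.12% of genes were called. With the vehicle arrays of days 2 and 6 in place of those of day 4, an alternative chosen after seeing the data, the day 4 changes were -0.04 for MEIS1, -0.61 for PBX3 and -1.11 for MEF2C.

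The changes of MEIS1 and PBX3 differed between the 2 lines, and these differences had opposite signs. The MOLM-13 change minus the MV4-11 change on day 6 was -1.38 ± 0.12 for MEIS1 (adjusted p = 1.34e-08) and 0.94 ± 0.10 for PBX3 (adjusted p = 2.09e-07), where 52.0% of genes were called. MEIS1 thus fell more in MOLM-13 cells, by 2.60-fold, and PBX3 fell less, by 1.92-fold. For MEF2C the difference was -0.50 ± 0.08 (adjusted p = 5.57e-05) on the brightest probe set and -0.98 ± 0.12 on 209200_at. It was 0.87 ± 0.26 on 207968_s_at and -0.20 (adjusted p = 0.209) on the mean of the 3, so no direction holds across the MEF2C probe sets. The second MEIS1 probe set gave -2.27 ± 0.33. With the 3′ to 5′ covariate the differences were -1.39 for MEIS1, 0.97 for PBX3 and -0.43 for MEF2C.

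The lines also differed without the inhibitor. In vehicle cultures of day 6, MOLM-13 minus MV4-11 was -0.51 ± 0.08 for MEIS1 (adjusted p = 2.03e-05), 0.58 ± 0.07 for PBX3 (adjusted p = 4.33e-07) and 0.27 ± 0.06 for MEF2C (adjusted p = 0.0004), with 63.8% of genes called. For MEF2C the other probe sets gave 0.63 ± 0.08 and 0.12 ± 0.19. MEIS1, which fell more in MOLM-13 cells, started lower there, and PBX3 started higher and stayed there. MEF2C started higher there on its brightest probe set and on 209200_at, and on both it fell more in MOLM-13 cells. On 207968_s_at it fell less there. Line, fusion and medium differ together, so they cannot be told apart.

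Over the 8 groups, the MEIS1 levels formed 4 steps. The 5 highest groups were vehicle and treated MV4-11 cells of days 2 and 4 and vehicle MV4-11 cells of day 6, with means of 11.19 to 11.03 log2 and arrays that overlapped from each group to the next. Vehicle MOLM-13 cells followed at 10.53 ± 0.10, treated MV4-11 cells of day 6 at 10.32 ± 0.08 and treated MOLM-13 cells at 8.43 ± 0.22 (SD, n = 3), with no overlap between these. For PBX3 both MOLM-13 groups were highest, at 11.47 ± 0.11 with vehicle and 11.38 ± 0.07 with the inhibitor, and overlapped. The 3 vehicle groups of MV4-11 cells came next, at 11.06 to 10.90 and overlapping, and then the treated groups of day 2, day 4 and day 6 at 10.56 ± 0.02, 10.34 ± 0.14 and 9.86 ± 0.05, none overlapping the next. MEF2C had its highest level in vehicle MOLM-13 cells, 12.06 ± 0.02, and its lowest in treated MOLM-13 cells, 9.75 ± 0.13, below the treated MV4-11 cells of day 6 at 9.97 ± 0.02 without overlap. Its vehicle groups of days 4 and 6 in MV4-11 cells, 11.87 ± 0.05 and 11.79 ± 0.04, were the 1 pair of neighbours that overlapped.

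MEIS1 and PBX3 have close relatives that bind like letters, so the rest of the TALE family is given. Of 16 TALE genes named on the array 10 were tested, and the numbers that rose and fell, MEIS1 and PBX3 included, were 0 and 1 on day 2, 5 and 2 on day 4, 4 and 4 on day 6 and 2 and 3 in MOLM-13 cells. The family medians were -0.04, 0.26, 0.40 and 0.00, against medians over all genes of 0.02, 0.01, 0.04 and -0.03. The shares of all genes called in these comparisons were 12.5%, 46.2%, 62.0% and 65.8%. MEIS2, the closest relative of MEIS1, was not called on day 2 (-0.04 ± 0.07), fell by 0.47 ± 0.07 on day 4 and by 0.66 ± 0.07 on day 6 in MV4-11 cells, and fell by 0.43 ± 0.07 in MOLM-13 cells. PBX2 was higher on day 4 (0.64 ± 0.22, adjusted p = 0.0212) and in MOLM-13 cells (0.56 ± 0.22, adjusted p = 0.0304). Neither PBX2 call held without the filter on low values or when single arrays were left out (0.57 to 0.61 without treated replicate 2 or vehicle replicate 1 or 3 of day 4, and 0.54 to 0.58 without any MOLM-13 array but treated replicate 1), and the MOLM-13 value was -0.56 with the 3′ to 5′ covariate. On the mean of its probe sets both were called, at 0.38 and 0.34. PBX4, with group means between 4.34 and 5.52, was not called in any comparison.

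Of the other TALE genes tested, 4 were higher on day 6 in MV4-11 cells. TGIF2, a repressor of TGF-beta signalling, rose by 0.39 ± 0.07 on day 4 and 0.52 ± 0.07 on day 6, and by 0.26 ± 0.07 in MOLM-13 cells (-0.03 with the covariate). Its day 6 value was 0.17 on the mean of its probe sets. Its paralog TGIF1 rose on day 6 by 0.56 ± 0.12, a call lost when the arrays compared were fitted alone (adjusted p = 0.0625). PKNOX1, a MEIS-related partner of PBX proteins, rose by 0.50 ± 0.08 on day 6, with 0.06 on the mean of its probe sets. The Iroquois gene IRX3 rose by 0.47 ± 0.11 on days 4 and 6 in MV4-11 cells, with 0.29 (adjusted p = 0.0576) on day 6 under the covariate. IRX5 rose by 0.69 ± 0.12 on day 4 (0.39 against the vehicle arrays of days 2 and 6) and fell by 0.42 ± 0.12 on day 6. The latter was not called without treated replicate 3 (-0.26), with the covariate (-0.24, adjusted p = 0.146) or with the arrays compared fitted alone (adjusted p = 0.0577). IRX5 also fell by 1.26 ± 0.12 in MOLM-13 cells. The 6 TALE genes not tested, MEIS3, PKNOX2, IRX1, IRX2, IRX4 and MKX, stayed at or under 2.67 on every array.

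HOX proteins are the DNA-binding partners of MEIS1 and PBX3. Of 19 HOX genes listed, 9 had a probe set that lists them alone, and 5 of these were tested, HOXB3 to HOXB7. The listed genes without such a probe set, HOXA9 and HOXA10 among them, were not followed. The values below therefore do not describe them. None of the 5 was called on day 2, while 1 rose on day 4, 2 rose on day 6, and 2 rose and 1 fell in MOLM-13 cells. The medians were 0.04, -0.04, 0.04 and 0.17, where 12.5%, 46.2%, 62.0% and 65.8% of all genes were called. HOXB3 rose by 0.75 ± 0.14 on day 4 and 1.14 ± 0.14 on day 6 in MV4-11 cells, from 6.95 to 8.10, and stood at 2.77 in vehicle MOLM-13 cells. The second riser of day 6, HOXB5 (0.21 ± 0.08), was not called without treated replicate 2 (0.09) or any vehicle replicate of day 6. HOXB4 fell by 0.68 ± 0.18 in MOLM-13 cells, and with only the arrays compared fitted neither it (adjusted p = 0.0845) nor any other of the 5 was called there. There HOXB6 and HOXB7 changed by 0.92 ± 0.34 and 0.77 ± 0.26 from group means of 4.01 and 2.94. Without treated replicate 1 they were 0.28 and 0.37 and not called, nor were they without vehicle replicate 2 (0.63 and 0.61), or HOXB7 without vehicle replicate 3 (0.61). The HOXB7 value was -0.04 on the mean of its probe sets.

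**Figure D3:**
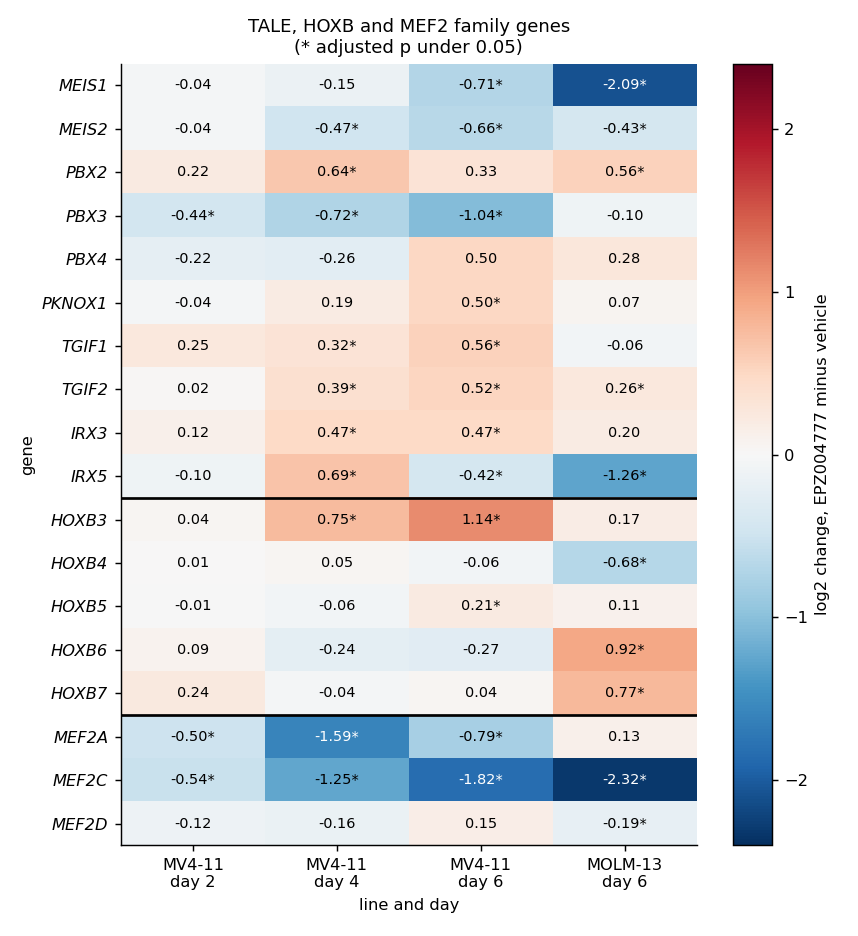
Log2 change (EPZ004777 minus vehicle, colour and printed value) of the TALE, HOXB and MEF2 genes tested, in rows, for each line and day, in columns, with an asterisk at an adjusted p under 0.05. MEIS1, MEIS2, PBX3, MEF2A and MEF2C are lower on day 6 in MV4-11 cells, while MEF2A (0.13) and PBX3 (-0.10) are not called in MOLM-13 cells.

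In the MEF2 family 3 genes were tested, and 2 were lower in each comparison, MEF2C being 1 of them. Among all genes 3.68%, 21.0%, 28.4% and 36.5% were called lower in the 4 comparisons. MEF2A, a widely expressed relative that shares the MEF2 site, fell on day 2 (-0.50 ± 0.14, adjusted p = 0.0207), day 4 (-1.59 ± 0.14) and day 6 (-0.79 ± 0.14) in MV4-11 cells, and was at 0.13 ± 0.14 in MOLM-13 cells (adjusted p = 0.435). Its day 2 call was lost without any array of day 2 but treated replicate 2 (-0.51 to -0.43). Its vehicle level was 9.15 on day 4 against 8.20 and 8.52 on days 2 and 6, and against those vehicle arrays its day 4 change was -0.80 ± 0.12. MEF2D was not called in MV4-11 cells and fell by 0.19 ± 0.07 in MOLM-13 cells (adjusted p = 0.0312), a call lost with a common median or another quantile normalization (-0.13 and -0.07) or without treated replicate 1 or 3 or vehicle replicate 1 or 2 (-0.18 to -0.14). The family medians were -0.50, -1.25, -0.79 and -0.19.

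Class IIa histone deacetylases hold MEF2 factors inactive, SIK kinases keep those deacetylases out of the nucleus, and EP300 and CREBBP are coactivators. Of 13 such genes tested 0 rose and 1 fell on day 2, 3 and 3 on day 4, 6 and 1 on day 6, and 8 and 2 in MOLM-13 cells, with medians of -0.01, -0.02, 0.19 and 0.35. The 7 of 13 called on day 6 are near the share over all genes, 62.0%. In MOLM-13 cells 65.8% of all genes were called, and 3 of the 13 were called there with the 3′ to 5′ covariate. SIK3 rose by 0.52 ± 0.08 in MV4-11 cells on day 6 and by 0.90 ± 0.08 in MOLM-13 cells, but on the mean of its probe sets it was at 0.08 (adjusted p = 0.357) and 0.29. HDAC5 rose by 0.95 ± 0.13 and CREBBP by 0.63 ± 0.09 in MV4-11 cells. In MOLM-13 cells their changes of 0.35 and 0.27 were not called with the covariate (0.00 and 0.08), on the mean of probe sets (0.30 and 0.15), or without single arrays: vehicle replicate 1 for HDAC5 (0.26), treated replicate 2 or vehicle replicate 3 for CREBBP (0.22 and 0.21). HDAC9 fell by 0.78 ± 0.17 on day 6 in MV4-11 cells, with -0.26 (adjusted p = 0.112) on the mean of its probe sets, and was at 0.26 ± 0.17 in MOLM-13 cells (adjusted p = 0.19).

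Among 4 genes known as MEF2 targets, the counts that rose and fell were 1 and 1, 0 and 3, 2 and 2, and 2 and 0, with medians of 0.17, -0.86, 0.29 and 0.44. The shares of all genes called were 12.5%, 46.2%, 62.0% and 65.8%. KLF2, a factor of quiescence, fell on days 2, 4 and 6 (-1.03 ± 0.23, -3.13 ± 0.23 and -2.50 ± 0.23) and was at -0.50 ± 0.23 in MOLM-13 cells (adjusted p = 0.0654). Its vehicle level was 9.49 on day 4 against 7.88 and 8.20 on days 2 and 6, and against those arrays its day 4 change was -1.67 ± 0.20. The stress-response factor JUN rose by 1.18 ± 0.23 on day 6 in MV4-11 cells and by 1.80 ± 0.23 in MOLM-13 cells (0.76 on the mean of its probe sets). On day 4 the direction of JUN depended on the vehicle arrays: it was -1.35 ± 0.23 against those of day 4, whose level was 9.39, and 0.79 ± 0.20 against those of days 2 and 6, at 7.13 and 7.36. With the latter, 1 of the 4 genes rose and 2 fell on day 4, with a median of -0.02. KLF4, a factor of monocyte maturation, rose by 0.97 ± 0.18 on day 6 and by 1.12 ± 0.18 in MOLM-13 cells. The nuclear receptor NR4A1, at group means of 4.49 to 5.04, was called lower on days 4 and 6 (-0.37 ± 0.14 and -0.40 ± 0.14). It was not called without treated replicate 1 or 3 or vehicle replicate 1 or 3 of day 4 (-0.40 to -0.30), nor without treated replicate 1 or 2 or vehicle replicate 3 of day 6 (-0.36 to -0.28).

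Of 10 genes described as targets of HOX proteins with MEIS1, 0 rose and 2 fell on day 2, 1 and 7 on day 4, 2 and 6 on day 6, and 1 and 6 in MOLM-13 cells, with medians of -0.15, -0.28, -0.43 and -0.28. Over all genes 3.68%, 21.0%, 28.4% and 36.5% were called lower in these comparisons. The day 2 count of 2 called was 4 or 5 with another prior, the mean of probe sets, the covariate or only the arrays compared, and 1 without treated replicate 1 or vehicle replicate 2. FLT3, a growth factor receptor of progenitors, fell on days 2, 4 and 6 (-0.33 ± 0.09, -0.77 ± 0.09 and -1.27 ± 0.09) and in MOLM-13 cells (-2.05 ± 0.09); its day 2 call was lost without treated replicate 1 or vehicle replicate 2 of day 2 (-0.33, adjusted p up to 0.0524). CDK6, a cell cycle kinase, fell on day 6 (-0.36 ± 0.06, and -1.28 on the mean of its probe sets) and in MOLM-13 cells (-1.32 ± 0.06). CCND3, a cyclin, fell on day 6 in MV4-11 cells (-0.90 ± 0.07). Its MOLM-13 change of -0.24 ± 0.07 was not called with the covariate (-0.16) or with quantile normalization again (-0.04). PIM1, a survival kinase, fell in both lines (-0.93 ± 0.11 and -1.35 ± 0.11). SOX4 was called higher in MV4-11 cells on days 4 and 6 (0.95 ± 0.08 and 0.80 ± 0.08). In MOLM-13 cells it was -0.33 ± 0.08, with 0.60 on the mean of its probe sets. SYK was called higher on day 6 in MV4-11 cells (0.24 ± 0.07) and in MOLM-13 cells (0.67 ± 0.07).

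MLL-fusion target genes other than the 3 members were called lower in MOLM-13 cells in 12 of 17 cases and higher in 0, with a median of -0.32, where 36.5% of all genes were lower. Of these 12, LAMP5 (-0.04), MBNL1 (-0.09), IGF2BP2 (-0.17) and ZEB2 (-0.36) were not called with quantile normalization again. ZEB2 also lost its call without the filter, with a common median and with only the arrays compared fitted. In MV4-11 cells 1 rose and 2 fell on day 2, 3 and 5 on day 4, and 4 and 2 on day 6, with medians of -0.01, -0.04 and 0.00. There 12.5%, 46.2% and 62.0% of all genes were called. Without treated replicate 3, and with the 3′ to 5′ covariate, 10 of the 17 were called on day 6 in place of 6, and 13 on the mean of probe sets, and 5 in place of 8 on day 4 against the vehicle arrays of days 2 and 6. DACH1 and ZNF521, both transcriptional regulators, fell in MOLM-13 cells (-2.98 ± 0.04 and -1.18 ± 0.04), from 12.11 and 11.62, and stood at the lowest value, 2.19, in MV4-11 cells. Both passed the filter only through MOLM-13 arrays and could not fall in MV4-11 cells. They are among the 17 in the counts and medians of each line, so these are not to be compared between lines. This list shares FLT3, CDK6, MYB and BCL2 with the list of HOX and MEIS1 targets. Of 13 genes of the MLL-fusion and DOT1L complexes, 2 rose and 6 fell on day 6 in MV4-11 cells and 3 rose and 4 fell in MOLM-13 cells. These counts do not stand out from the 62.0% and 65.8% of all genes called there. With only the arrays compared fitted, 5 of the 13 were called on day 6 in MV4-11 cells. MLLT6, the partner of a rare MLL fusion, rose in both (1.01 ± 0.09 and 0.79 ± 0.09, the latter 0.35 with the covariate), AFF1, the AF4 gene, fell in both (-0.46 ± 0.05 and -0.35 ± 0.05, the latter -0.20 with quantile normalization again), and so did MLLT10, a partner of DOT1L (-0.31 ± 0.07 and -0.56 ± 0.07). DOT1L itself, the target of the compound, fell on days 2, 4 and 6 (-0.55 ± 0.13, -0.99 ± 0.13 and -0.36 ± 0.13) and was at -0.09 ± 0.13 in MOLM-13 cells (adjusted p = 0.576). Its day 2 call was lost on the mean of its probe sets. On day 6 it was -0.58 without treated replicate 3 and was not called without treated replicate 1 or 2 or vehicle replicate 1 or 3 (-0.35 to -0.24).

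**Figure D4:**
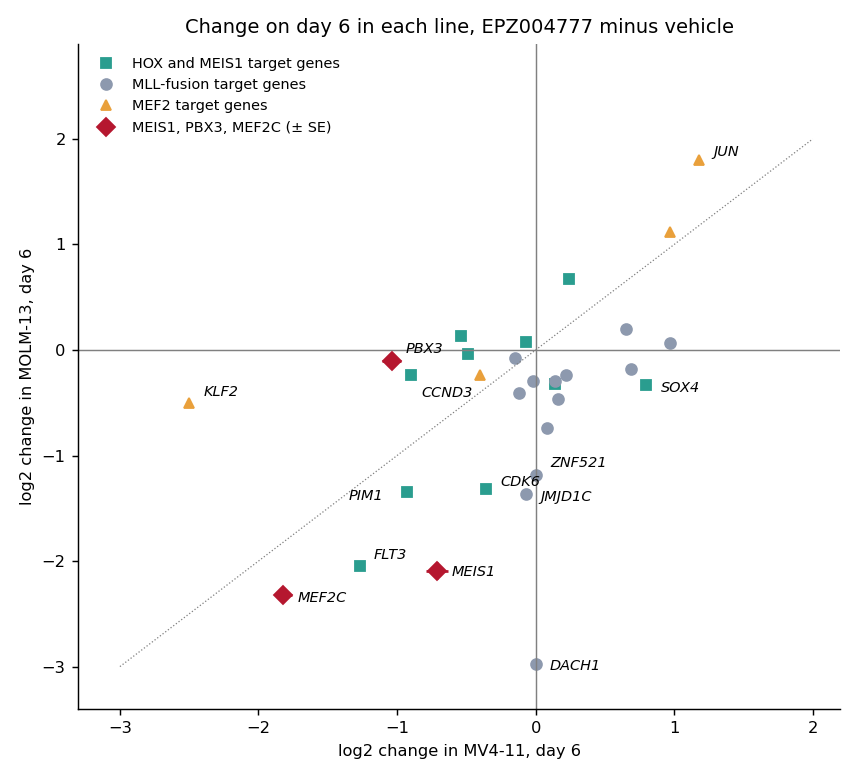
Log2 change on day 6 (EPZ004777 minus vehicle) in MV4-11 cells (x axis) and MOLM-13 cells (y axis) for the target gene lists (symbols) and for MEIS1, PBX3 and MEF2C (diamonds, with SE bars); the dotted line marks equal change, and genes in 2 lists are drawn once. MEIS1 (-0.71 and -2.09) and FLT3 (-1.27 and -2.05) lie below the dotted line and PBX3 (-1.04 and -0.10) above it, while DACH1 and ZNF521 sit at 0 on the x axis because they were at the lowest value in MV4-11 cells.

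The genes whose levels followed each member most closely are given as a description; the points are arrays of the same 8 groups, so a shared difference between lines or treatments raises every r. Over 24 arrays, MEIS1 was most like PHF10 (Pearson r 0.983), CTDSPL2 (0.975), LRRC42 (0.974), CDK6 (0.971) and ANKMY2 (0.968). PBX3 was most like DERL1 (0.974), NRROS (0.974), KIF21B (0.972), MID1IP1 (0.969) and CCND3 (0.968). MEF2C was most like XBP1 (0.973), SMC4 (0.972), SLC1A5 (0.968), HSPA9 (0.966) and SIAH2 (0.957). XBP1, a factor of secretory cells, changed by -1.63 on day 6 and -1.84 in MOLM-13 cells, and KIF21B, a kinesin, by -2.14 and -0.16.

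Within the 18 MV4-11 arrays the most alike were HNRNPL, ZDHHC6, PREB, ZNF800 and PTGS1 for MEIS1 (0.952 to 0.930), ALOX12, PTPN7, MID1IP1, RAB14 and NRROS for PBX3 (0.976 to 0.967), and ALOX12, FCGR1BP, ACACA, ESYT2 and FLT3 for MEF2C (0.993 to 0.984). FCGR1BP has near-identical gene copies, so its values may be shared with them. ALOX12, a lipoxygenase of platelets, headed the lists of both PBX3 and MEF2C; it changed by -0.90, -2.59 and -3.03 in MV4-11 cells and by 1.44 in MOLM-13 cells. Among the 3 members, PBX3 and MEF2C had an r of 0.977 within MV4-11 arrays and 0.444 over all arrays. For MEIS1 with PBX3 the values were 0.851 and -0.29, and for MEIS1 with MEF2C 0.814 and 0.684.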

How the data were processed

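The authors deposited 1 table of intensity values, made with GCRMA per the submitters' processing notes (version not given in the sources used here), for 54675 probe sets and 24 arrays. The intensities are on a linear scale and were taken to log2 with a pseudocount of 0. Of the probe sets 41097 list 1 gene symbol, 1801 several and 11777 none; none was named from a probe set with several. A gene was its probe set with the highest mean over all arrays among the 25334 that passed the filter, so 10971 genes were tested. limma 3.58.1 in R 4.3.3 fitted 8 group means to all arrays, with 14 contrasts, and was tested on simulated data. A separate fit held every probe set.

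The members and gene lists were chosen with earlier results of these data known. Named genes are the members, the 5 genes most like each by r over 24 and over 18 arrays, all measured TALE, HOX and MEF2 genes, and up to 4 genes of each other list by adjusted p; neighbours and other genes named were added later. Promoter windows come from RefSeq, GRCh38.p14. Alternatives: filter, prior, arrays fitted, probe set choice, scaling, pseudocount, replicate block and each array left out.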

Additional observations from a re-analysis of the deposited data

Results flagged for a closer look

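For each gene, the treatment effect differed between days or lines by a limma test of the difference itself, with 3 arrays a group. The genes were chosen with earlier results of these data known. These p-values therefore describe the differences and are no independent test of them. For MEIS1 the day 6 effect in MV4-11 cells was below that of day 4 by -0.57 (adjusted p = 0.00187) and below that of day 2 by -0.67 (adjusted p = 0.000165), and the MOLM-13 effect was below the MV4-11 effect by -1.38 (adjusted p = 1.34e-08). For PBX3 the 2 day differences were -0.31 (adjusted p = 0.0251) and -0.59 (adjusted p = 0.000102), and the line difference had the other sign, 0.94 (adjusted p = 2.09e-07). For MEF2C the effect of day 4 minus day 2 was -0.71, of day 6 minus day 4 -0.57 and of day 6 minus day 2 -1.29 (adjusted p at most 9.26e-05), and the line difference was -0.50 (adjusted p = 5.57e-05). The line difference of MEF2C was 0.87 on the dim probe set 207968_s_at.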

How the results depend on the processing

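The falls of MEIS1 on day 6 in both lines, of PBX3 on all days in MV4-11 cells and of MEF2C in all 4 comparisons kept their direction and call under each alternative run, except that MEF2C was not called on day 2 with probe set 207968_s_at (-0.55, adjusted p = 0.0575). With each array left out in turn, MEIS1 in MV4-11 cells on day 6 ran from -0.76 to -0.68, PBX3 from -1.06 to -1.01 and MEF2C from -1.84 to -1.80. The replicate numbers were not treated as pairs. The r of same-numbered deviations ran from -0.26 to 0.10, which cannot exclude pairing with 3 arrays a group. A limma fit with the replicate number as a block changed no call of the 3 genes (day 6 minus day 4 of PBX3 -0.31, adjusted p = 0.0313).

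The MOLM-13 minus MV4-11 difference of MEF2C was -0.20 on the mean of its probe sets and 0.87 on 207968_s_at. In vehicle cultures, MEF2C on 207968_s_at was 0.12 for MOLM-13 minus MV4-11, -0.06 for day 4 minus day 2 and 0.32 for day 6 minus day 4; on 209200_at the day differences were 0.15 and 0.08, and on the mean of probe sets 0.10 and 0.10. MEIS1 on 1559477_s_at was 0.04 for vehicle day 6 minus day 2. PBX3 in MOLM-13 cells was 0.04 with quantile normalization again. Fitted on only the arrays compared, PBX3 was -0.22 (adjusted p = 0.0586) for treated day 4 minus day 2 and -0.17 (adjusted p = 0.0461) for vehicle day 6 minus day 4, and the genes called fell to 861 for treated day 6 minus day 4 and to 4 for vehicle day 6 minus day 2. With the 3′ to 5′ covariate PBX3 was -0.28 for day 4 minus day 2 (adjusted p = 0.0479) and -0.28 for day 6 minus day 4 (adjusted p = 0.116), and 4339 genes were called in MOLM-13 cells and 1497 for day 6 minus day 4. HOXB7 in MOLM-13 cells was -0.04 on the mean of its probe sets, and PBX2 and TGIF2 were -0.56 and -0.03 with the covariate. The cause was not tested in these cases.

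Left-out arrays gave 0.18 to 0.25 for MEF2C in vehicle day 4 minus day 2, and for PBX3 -0.28 to -0.14 in treated day 4 minus day 2, -0.34 to -0.20 in the effect of day 4 minus day 2 and -0.39 to -0.25 in that of day 6 minus day 4. Counts of genes called ran from 909 (without vehicle replicate 1) to 981 on day 2, 1871 to 2676 and 1096 to 1787 for vehicle day 4 minus day 2 and day 6 minus day 4, and 28 to 366 for vehicle day 6 minus day 2. Levels near the lowest value, as for 207968_s_at in treated cells, limit the size of a fold.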

Other observations

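The nearest named genes that passed the filter on each side of the members were looked up after the design was set. Beside MEIS1, SPRED2, an inhibitor of RAS signalling about 1000 kb before it, changed by -0.73 ± 0.10 on day 4, -0.83 ± 0.10 on day 6 and -0.50 ± 0.10 in MOLM-13 cells (adjusted p at most 0.000251 in the limma fit), while ETAA1, 823 kb after it, was not called in any treatment comparison (-0.00 to 0.22). Beside PBX3, MAPKAP1, a subunit of the mTORC2 complex 40.2 kb before it, was not called on day 4 (-0.07 ± 0.09), and fell by 0.44 ± 0.09 on day 6 and by 0.76 ± 0.09 in MOLM-13 cells, where PBX3 was not called. MVB12B, an endosomal sorting gene 359 kb after PBX3, rose by 0.34 ± 0.09, 1.21 ± 0.09 and 1.52 ± 0.09 on days 2, 4 and 6 and was at 0.09 ± 0.09 in MOLM-13 cells (adjusted p = 0.408). Beside MEF2C, the long noncoding RNA gene TMEM161B-DT rose by 0.66 ± 0.09 on day 6 and 0.32 ± 0.09 in MOLM-13 cells, and CETN3, a centrin gene, fell by 0.45 ± 0.09 and 0.64 ± 0.09.

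The noncoding genes MEF2C-AS1 and PBX3-DT were at the lowest value on 20 and 23 of the 24 arrays and did not pass the filter.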
